A study of Mus musculus with 16 samples.

Results

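Transcripts of 36 genes of DNA replication and mitosis were followed through single cells of the mouse lung. The members are a list of gene names, and all 36 were among the 38003 genes of the deposited count matrix. Of these, 13 are S-phase members, which copy DNA, supply its building blocks or, as E cyclins, act at the entry into S phase. The other 23 are M-phase members, which drive the entry into mitosis, condense and attach chromosomes, or split the cell. The data comprise 80449 cells of dissociated lung from 15 samples, sorted as live single cells, with each cell's type taken from the authors' annotation of 22 types.

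The samples fall into 6 groups. Mice had received vehicle (3 samples), 6-OHDA (3 samples) or BIBO3304 (3 samples), and the same 3 treatments were given in the presence of seeded pancreatic ductal adenocarcinoma (PDAC) cells (2 samples each, written with the ending -PDAC after the treatment, as in vehicle-PDAC). 6-OHDA, 6-hydroxydopamine, is a toxin that destroys catecholaminergic nerve endings, and BIBO3304 is an antagonist of the neuropeptide Y receptor Y1. Neither the labels nor the metadata name doses, times, strain, age or sex, or say that each sample is 1 mouse. The p-values therefore cover only the spread from sample to sample, which may be technical. PDAC seeding was read from a column that marks samples as IV or not. Of 312 cells annotated as cancer cells, 308 lay in the IV samples, and 4 lay in the vehicle samples without PDAC cells. Vehicle-PDAC 2 held 0 annotated cancer cells, whereas the other 4 seeded samples held 33 to 75.

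Proliferating cells express these genes in waves. Before S phase, E2F factors switch on the MCM helicase, the DNA clamp Pcna, ribonucleotide reductase and the E cyclins. Later, a program that acts through CHR and CCAAT elements switches on Cdk1, its cyclins, and the genes of kinetochore and spindle, many of whose transcripts and proteins are degraded as the cell divides. Mki67, which coats mitotic chromosomes, and Top2a, the topoisomerase that untangles sister chromatids, are the usual markers of cycling cells. In the healthy adult lung most cells rest, and alveolar macrophages, the resident phagocytes of the air spaces, maintain themselves largely by local division.

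The start-site sequences of 6 members are shown with their matches to CHR, CCAAT and E2F elements. RefSeq's table (GRCm38.p6) held 30 of the 36 members (11 S-phase, 19 M-phase), and the stretch from 250 bases before to 30 bases after each gene's start was searched on both strands for the CHR element TTTGAA, for CCAAT, and for the E2F forms TTTGGCGC, TTTCGCGC, TTTCCCGC, TTTGCCGC, TTTGGCGG and TTTCCCGG. Mki67, Top2a and Pcna are shown because their levels differed between groups, Ccnb2 as a mitotic cyclin, Bub1b because its transcripts were spread over cells, and Mcm6 for its E2F matches. They were chosen after the values had been seen. Capitals mark every match, and E2F matches on opposite strands can overlap.
Mki67, chr7:135716350-135716629, minus strand: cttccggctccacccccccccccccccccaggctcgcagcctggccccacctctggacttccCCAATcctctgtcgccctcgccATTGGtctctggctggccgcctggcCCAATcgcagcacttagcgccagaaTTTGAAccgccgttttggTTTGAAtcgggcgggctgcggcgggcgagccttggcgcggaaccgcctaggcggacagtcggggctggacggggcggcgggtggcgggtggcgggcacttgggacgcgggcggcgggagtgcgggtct
Top2a, chr11:99024160-99024439, minus strand: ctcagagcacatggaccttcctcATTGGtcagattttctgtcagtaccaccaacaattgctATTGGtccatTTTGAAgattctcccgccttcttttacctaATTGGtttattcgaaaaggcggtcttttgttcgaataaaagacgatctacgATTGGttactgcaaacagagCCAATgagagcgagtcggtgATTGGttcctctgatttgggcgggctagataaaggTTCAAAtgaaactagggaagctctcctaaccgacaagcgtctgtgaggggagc
Ccnb2, chr9:70421525-70421804, minus strand: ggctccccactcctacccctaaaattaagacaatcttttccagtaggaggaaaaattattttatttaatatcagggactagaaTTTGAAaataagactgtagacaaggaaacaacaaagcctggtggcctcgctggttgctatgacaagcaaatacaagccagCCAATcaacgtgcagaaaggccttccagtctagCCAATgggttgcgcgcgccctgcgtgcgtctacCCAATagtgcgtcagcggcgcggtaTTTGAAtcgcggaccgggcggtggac
Bub1b, chr2:118597961-118598240, plus strand: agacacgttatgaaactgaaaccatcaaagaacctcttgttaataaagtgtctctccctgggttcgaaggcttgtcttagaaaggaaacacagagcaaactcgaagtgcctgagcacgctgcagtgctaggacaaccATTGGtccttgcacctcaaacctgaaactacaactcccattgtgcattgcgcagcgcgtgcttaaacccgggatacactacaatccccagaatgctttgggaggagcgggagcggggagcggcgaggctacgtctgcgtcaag
Pcna, chr2:132253151-132253430, minus strand: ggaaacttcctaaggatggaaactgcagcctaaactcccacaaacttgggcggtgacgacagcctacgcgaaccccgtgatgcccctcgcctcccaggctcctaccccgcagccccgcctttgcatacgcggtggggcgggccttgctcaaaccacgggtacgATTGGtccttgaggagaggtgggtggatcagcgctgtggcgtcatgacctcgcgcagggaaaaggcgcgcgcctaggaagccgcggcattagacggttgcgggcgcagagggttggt
Mcm6, chr1:128359676-128359955, minus strand: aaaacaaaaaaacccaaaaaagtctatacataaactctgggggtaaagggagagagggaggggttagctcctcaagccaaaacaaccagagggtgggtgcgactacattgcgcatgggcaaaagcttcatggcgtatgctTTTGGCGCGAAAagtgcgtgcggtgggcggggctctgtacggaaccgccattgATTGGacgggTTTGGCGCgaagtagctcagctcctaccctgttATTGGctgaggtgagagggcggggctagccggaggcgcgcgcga
Mki67, Top2a and Ccnb2 each held 2 CHR matches beside 3, 6 and 3 CCAAT matches. Bub1b and Pcna held 1 CCAAT match and neither of the other motifs, and Mcm6 held 3 E2F matches. CHR letters were present in 11 of 19 M-phase promoters (57.9%), in 1 of 11 S-phase promoters (9.09%, Mcm2) and in 17.2% of all 32851 promoters. E2F letters were present in 5 of 11 S-phase promoters (45.5%), in 2 of 19 M-phase promoters (10.5%) and in 3.7% of all. CCAAT letters did not separate the 2 phases, with 81.8% of S-phase and 84.2% of M-phase promoters against 36.1% of all.

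Depth differed between groups, and this touches every share of cells with a transcript. The samples held 10003796 to 32580698 transcripts (counts of molecules after the authors' processing), and the median per cell lay between 1640 and 1906 in the vehicle samples, between 2078 and 2223 in the 6-OHDA samples and between 2631 and 4846.5 in the BIBO3304 samples. In the seeded lungs it was 2411 to 3411, 2559 to 2729 and 1623 to 2417 in the same order. Shares of cells were therefore taken after each cell had been thinned at random to 1000 transcripts, which kept 66732 cells (77.1% to 88.8% of cells, depending on the group). No cell barcode was shared between samples. Shares over cells carry 95% exact binomial (Clopper-Pearson) intervals, which cover counting error only.

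Transcripts of Mki67 or Top2a were most common in the seeded cancer cells, followed by dendritic cells. After thinning, 31.6% of cancer cells (96 of 304, interval 26.4% to 37.1%) and 16.35% of dendritic cells (281 of 1719, 14.6% to 18.2%) held one. Alveolar macrophages followed with 4.97% (1058 of 21296, 4.68% to 5.27%), T cells with 4.93% (113 of 2293, 4.08% to 5.90%) and interstitial macrophages, the tissue macrophages outside the air spaces, with 4.78% (139 of 2906, 4.04% to 5.62%). The intervals of the last 3 overlap. Neutrophils and ciliated cells do not divide once mature, and they held a transcript in 2.70% (23 of 853) and 2.63% (16 of 609) of cells, with median depths of 1824 and 2654 transcripts. A share at or below that level is read as background. Apart from B cells (4.17%), the other types with at least 200 thinned cells lay between 1.20% and 3.69%. Without thinning, the shares were 84.6% in cancer cells, 25.9% in dendritic cells, 11.2% in alveolar macrophages, 11.6% in interstitial macrophages and 7.78% in T cells, against 4.48% in neutrophils and 5.26% in ciliated cells.

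A stricter count separated these types. Cells were counted when the 1000 retained transcripts included at least 3 different M-phase members, a rule adopted after several cut-offs on S-phase and M-phase members had been tabulated by cell type. Of 493 such cells, 332 were alveolar macrophages (1.56% of that type, 1.40% to 1.73%), 69 were cancer cells (22.7%, 18.1% to 27.8%), 40 were dendritic cells (2.33%, 1.67% to 3.16%) and 34 were T cells (1.48%). The remaining 18 types together held 18 of the 493 cells, at most 3 in any one of them and at most 0.254% of a type. Interstitial macrophages had 2 such cells of 2906 (0.0688%, 0.00834% to 0.248%) although their share of Mki67 or Top2a cells matched that of alveolar macrophages within its interval. Ciliated cells had 0 of 609, which allows a share of up to 0.493%, and neutrophils 1 of 853. Among the 493 cells, 24 (4.87%) were in the 5% of cells with the highest doublet scores, unevenly by type: 2.5% of the 40 dendritic cells, 8.82% of the 34 T cells and 20.3% of the 69 cancer cells. The other cells of these types were there at 5.12%, 4.69% and 33.6%.

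**Figure D1:**
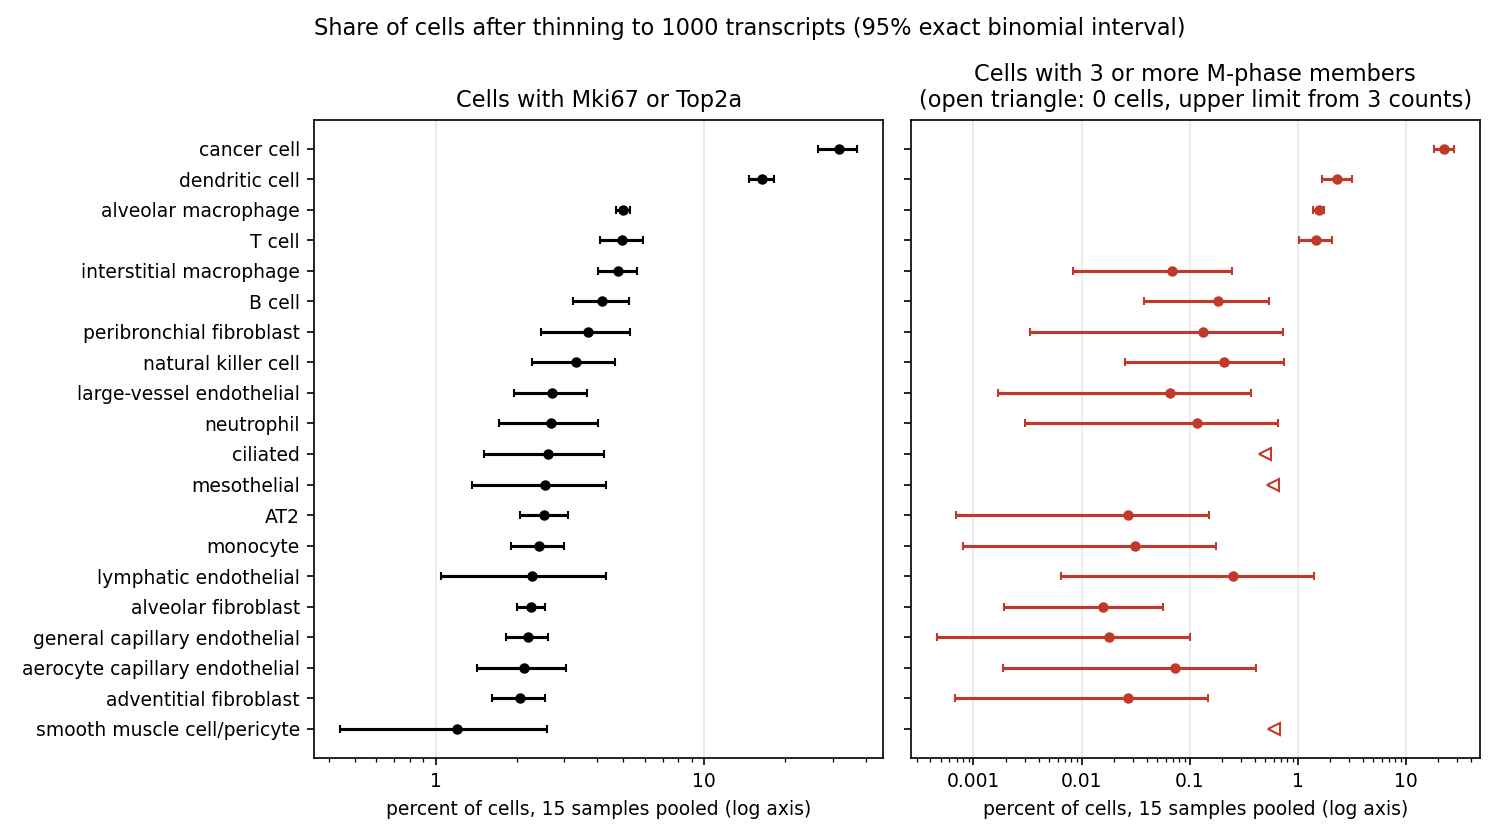
Percent of thinned cells with a Mki67 or Top2a transcript (left) and with at least 3 M-phase members (right) in each cell type with at least 200 thinned cells, pooled over 15 samples, on log axes with 95% exact binomial intervals. Cancer cells, dendritic cells, alveolar macrophages and T cells lie apart on the right, whereas interstitial macrophages, at 4.78% on the left, fall to 0.0688% on the right.

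The 332 alveolar macrophages with at least 3 M-phase members also held S-phase transcripts. An S-phase member was found in 53.6% of them after thinning and in 12.4% of the other 20964 alveolar macrophages. They were larger libraries before thinning, with a median of 4758 against 3232 transcripts. Their alveolar macrophage markers summed to 2.88 transcripts per thinned cell against 3.52 in the rest. Markers of T cells summed to 0 against 0.00415, of B cells to 0.00904 against 0.00296 and of dendritic cells to 0.0271 against 0.0186. The top doublet scores held 0.904% of them, against 1.83% of the rest.

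Members differed in how closely they kept to the same cells. In alveolar macrophages the cells with Mki67 or Top2a were 4.97% of all, and the share of a member's thinned transcripts that fell in them describes its company (for Mki67 the cells with Top2a were used, and for Top2a those with Mki67). Over the 21 other M-phase members the median was 49.3% (12.6% to 77.8%), and 15 of them exceeded 40%. Over the 13 S-phase members it was 18.2% (7.61% to 76.9%). These values pool the cells of 15 samples and are a description.

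By role, the helicase subunits that license origins, Mcm2 to Mcm7, had shares between 7.61% (Mcm2) and 20.2% (Mcm5), so most of their transcripts lay in cells without either marker. The DNA clamp Pcna (10.0% of 569 transcripts) and the polymerase alpha subunit Pola1 (15.8% of 991) were spread in the same way. Rrm2, the ribonucleotide reductase subunit made in S phase, differed from its partner Rrm1: 58.5% of 65 Rrm2 transcripts (45.6% to 70.6%) and 25.5% of 330 Rrm1 transcripts (20.8% to 30.5%) lay in marker cells. Cyclin E2 (Ccne2) reached 76.9%, on 13 transcripts.

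Of the mitotic entry genes, Cdk1 had 50% of 58 transcripts and Ccna2 68.3% of 41 in the marker cells. The other mitotic entry genes were lower on fewer or as few transcripts: cyclin B1 (Ccnb1) had 38.9% of 18 (17.3% to 64.25%), cyclin B2 (Ccnb2) 28.3% of 53 (16.8% to 42.35%), the kinase Aurka 20% of 30 (7.71% to 38.6%) and the kinase Plk1 16% of 25 (4.54% to 36.1%). High shares were also found for Cenpf (60.6% of 282), Bub1 (66.7% of 45) and Birc5 (52.8% of 125) of the kinetochore and its passenger complex. Among spindle genes the motor Kif11 had 65.1% of 149 and the midzone bundler Prc1 56.7% of 171. Cdc20, which activates the ligase that ends mitosis, had the highest share of the M-phase members (77.8%), on 18 transcripts. Bub1b, a spindle checkpoint kinase, had 12.6% of 586 transcripts there (10.05% to 15.6%) and Anln, a scaffold of the cleavage furrow, 18.8% of 303 (14.6% to 23.7%). Like Ccnb2, Aurka and Plk1 they lay below 30%, on more transcripts than those, and their intervals lie below those of Bub1 and Kif11.

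**Figure D2:**
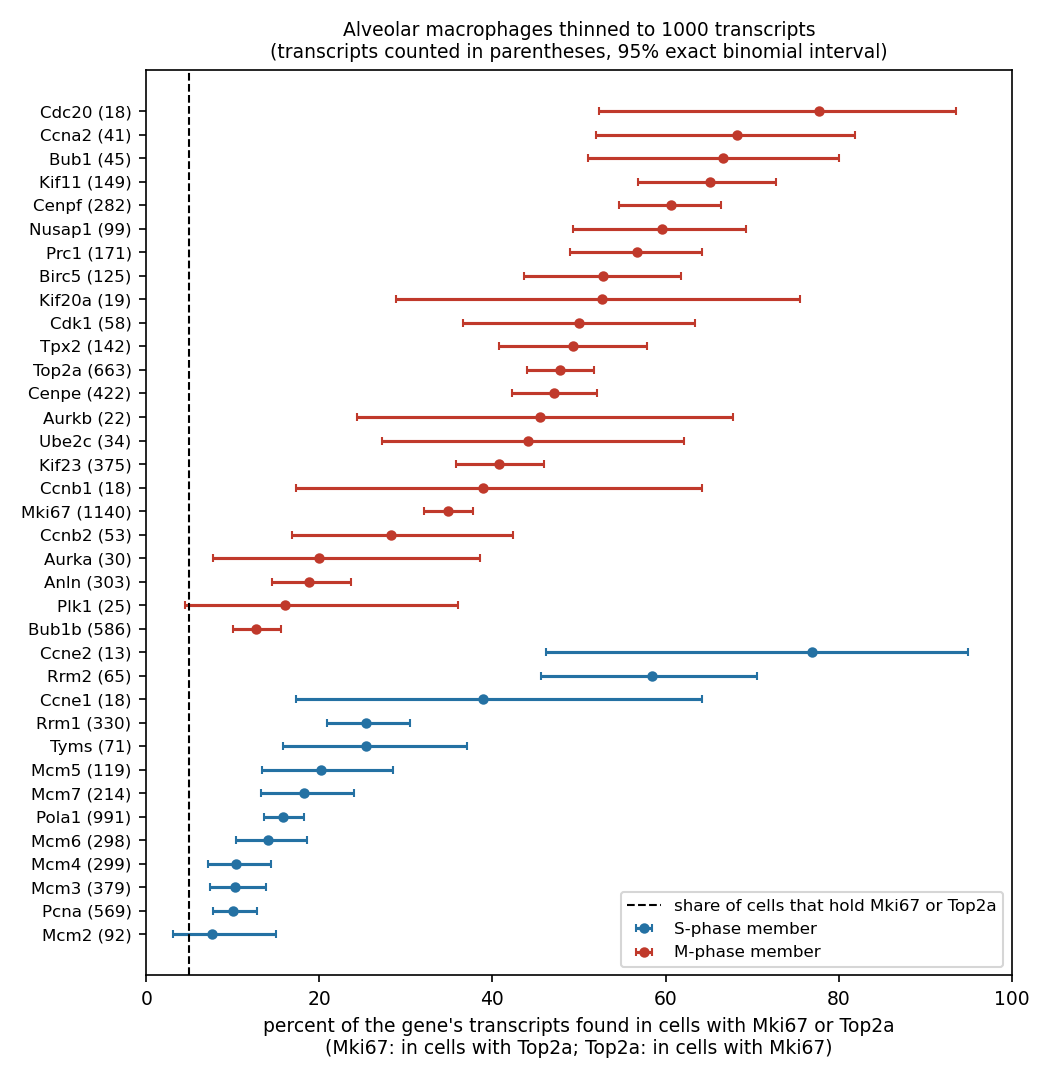
Share of each member's thinned transcripts that lay in alveolar macrophages with Mki67 or Top2a, with 95% exact binomial intervals and the number of transcripts after each name. The dashed line is the 4.97% of cells that hold either marker, and the M-phase members (red) lie mostly above 40% while most S-phase members (blue) lie between 7.61% and 25.5%.

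In the annotation used here 8 members share ground with a protein-coding gene on the opposite strand (Nusap1, Ube2c, Ccna2, Ccne2, Cdc20, Mcm7, Prc1 and Kif20a). No source used here says whether counting used the strand, so reads of the partner gene cannot be told apart in them.

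Conditions were compared on counts summed per sample and cell type, in 7 comparisons and 2 interactions. In some type 34 of the 36 members passed the filter on low counts: all but Ccnb1 and Cdc20, cyclin B1 and the activator of the ligase that degrades it. Alveolar macrophages had 34 members tested, alveolar fibroblasts 20, T cells 12, type 2 epithelial cells 10 and dendritic cells 9, and 3 of 19 fitted types had none. A gene was called at a Benjamini-Hochberg adjusted p under 0.05 in edgeR's quasi-likelihood test, adjusted within each type and comparison over all genes tested.

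Among members 3 tests were called, all in 1 comparison. Under BIBO3304, lungs with PDAC cells against lungs without, Top2a and Pcna rose in interstitial macrophages and Mki67 fell in dendritic cells. They are 3 of the 132 tests of members there, beside 4.25% of all 113537 tests over all types. At an unadjusted p under 0.05 there were 17 of 132 tests of members (12.9%), against 19.1% of all. The other 6 comparisons and both interactions gave 0 calls among members with edgeR. Over all genes, the shares called were 0.0669% for 6-OHDA and 0.307% for BIBO3304 without PDAC cells, and 0.405% and 0.0317% with them. For PDAC cells against none they were 0.00176% under vehicle and 0.729% under 6-OHDA, and for the interactions 0.00744% (6-OHDA) and 0.413% (BIBO3304). At an unadjusted p under 0.05, 6-OHDA against vehicle had 17 of 132 tests without PDAC cells (7.72% of all genes' tests) and 17 of 131 with them (7.47%). BIBO3304 against vehicle had 13 of 132 (12.9% of all) and 5 of 132 (7.76%), and PDAC cells against none had 10 of 132 under vehicle (4.91%) and 10 of 131 under 6-OHDA (7.85%). The interactions had 5 of 131 (5.12% of all) for 6-OHDA and 10 of 132 (13%) for BIBO3304. DESeq2 gave 2 calls among members for 6-OHDA without PDAC cells, 3 for 6-OHDA with them and 1 for the BIBO3304 interaction.

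Alveolar macrophages of 6-OHDA-treated lungs held more Mki67 transcripts, both with and without PDAC cells, short of the threshold. Levels are TMM-scaled CPM, transcripts of a gene relative to all transcripts of the type in that sample. Without PDAC cells Mki67 was at 48.4, 46.0 and 59.3 CPM in the vehicle samples and at 159.5, 172 and 88.1 CPM in the 6-OHDA samples. The groups did not overlap, and 6-OHDA 3 was the lowest of its group. The log2 fold change was 1.45 ± 0.24 (SE), with an adjusted p of 0.0578 in edgeR. With PDAC cells Mki67 was at 41.7 and 55.7 CPM under vehicle and at 132 and 94.0 CPM under 6-OHDA, a log2 fold change of 1.21 ± 0.29 with an adjusted p of 0.244. The 2 comparisons share no samples, and their difference did not pass (log2 difference -0.24 ± 0.37, adjusted p 0.999).

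Top2a had the same order. It was at 30.3, 38.6 and 37.6 CPM under vehicle and 84.0, 73.7 and 40.1 CPM under 6-OHDA without PDAC cells, a log2 fold change of 0.90 ± 0.21 (adjusted p 0.213). With PDAC cells it was at 26.1 and 27.6 CPM under vehicle and 65.9 and 56.8 CPM under 6-OHDA, a log2 fold change of 1.19 ± 0.27 (adjusted p 0.229). In both settings every 6-OHDA sample lay above every vehicle sample, although 6-OHDA 3 exceeded the highest vehicle sample by little. Neither value was called. Without 6-OHDA 3 both genes were called in lungs without PDAC cells (adjusted p 0.00403 for Mki67 and 0.03125 for Top2a), and with other samples left out the adjusted p was as high as 0.357 and 0.580. With DESeq2 both were called in both settings (2.31e-06 and 0.0201 without PDAC cells, 0.02295 for each with them).

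Of the 34 members tested in alveolar macrophages, 28 had a fold change above 0 under 6-OHDA without PDAC cells and 30 with them, against 47.3% and 47.1% of all 12818 genes tested. The median log2 fold change of the members was 0.50 and 0.72, and that of all genes -0.02 in both. Without PDAC cells the groups did not overlap for 8 members, all higher (10.2% of all genes were separate and higher, and 11.8% separate and lower). With PDAC cells 23 members were separate and higher and 2 were separate and lower (13.6% and 13.8% of all genes). Higher in both comparisons were 24 of 34 members (70.6%), against 26.4% of all genes. An unadjusted p under 0.05 was found for 12 members without PDAC cells (10.7% of all genes) and 13 with them (6.5% of all), each of them higher, and 0 members were called with edgeR in either (0.0078% and 0.0234% of all genes).

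The M-phase members had the larger values of the 2 phases without PDAC cells, with a median log2 fold change of 0.60 against 0.28 for the S-phase members; with PDAC cells the medians were 0.76 and 0.42. The difference between phases was not tested. Summed over the 23 M-phase members, the level was 217, 236 and 252 CPM in the vehicle samples and 502, 501 and 269 CPM in the 6-OHDA samples. With PDAC cells it was 203 and 221 against 429 and 333 CPM. Here too the groups did not overlap, with 6-OHDA 3 close to the vehicle samples. Summed over the 13 S-phase members, the vehicle samples had 144, 134 and 136 CPM and the 6-OHDA samples 168, 176 and 149 CPM, and with PDAC cells the values were 205 and 173 against 249 and 234 CPM. On the cells' own totals, without TMM scaling, no group pair overlapped either. The S-phase sums were also higher with PDAC cells than without them, under vehicle and under 6-OHDA, without overlap, while the M-phase sums overlapped. For PDAC cells against none, 5 of 13 S-phase members had an unadjusted p under 0.05 under vehicle (6.30% of all genes). Under 6-OHDA there were 7 (5.09%) and under BIBO3304 4 (19.6%), all higher and none called. 6-OHDA against vehicle had 1 without PDAC cells (10.7%) and 4 with them (6.50%). The types read as background also held M-phase transcripts. Their M-phase sum in neutrophils was 106 to 180 CPM under vehicle, 146 to 211 CPM under 6-OHDA and 157 to 278 CPM under BIBO3304. In ciliated cells it was 40.8 to 82.5 CPM under vehicle and 74.5 to 96.2 CPM under 6-OHDA. With PDAC cells the ciliated sums were 35.2 to 53.3 CPM under vehicle and 75.6 to 85.45 CPM under 6-OHDA, without overlap. Neutrophil sums with PDAC cells were 108 to 124 CPM under vehicle and 110 to 141 CPM under 6-OHDA, which overlap. No background was subtracted from the sums.

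Single members differed within each role. Of the helicase, Mcm5 was at 4.58, 5.59 and 3.71 CPM under vehicle and at 5.15, 6.24 and 3.51 CPM under 6-OHDA, with overlapping groups (log2 fold change 0.13 ± 0.35). With PDAC cells it was at 4.59 and 5.31 against 9.09 and 8.16 CPM (0.79 ± 0.41, adjusted p 0.808). Pcna differed little, at 21.4, 17.1 and 23.4 against 22.8, 27.5 and 25.5 CPM and, with PDAC cells, at 24.99 and 28.5 against 36.35 and 30.2 CPM. Rrm2 was at 2.29, 3.12 and 3.71 against 6.23, 5.95 and 2.05 CPM, which overlap. In seeded lungs it was at 2.48 and 2.14 against 10.9 and 7.45 CPM, which do not (1.96 ± 0.43, adjusted p 0.229).

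Among the spindle genes Tpx2, an activator of Aurora A, was at 7.62, 5.92 and 9.32 CPM under vehicle and at 20.6, 17.6 and 10.5 CPM under 6-OHDA (log2 fold change 1.09 ± 0.23, adjusted p 0.206). With PDAC cells it was at 7.30 and 8.09 against 15.45 and 15.3 CPM (0.99 ± 0.29, adjusted p 0.410). Bub1b, whose transcripts were spread over cells, was at 26.5, 28.6 and 30.9 against 30.5, 35.2 and 32.2 CPM, and with PDAC cells at 37.0 and 24.97 against 29.1 and 24.5 CPM. Its log2 fold changes of 0.18 ± 0.20 and -0.22 ± 0.26 had opposite signs.

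**Figure D3:**
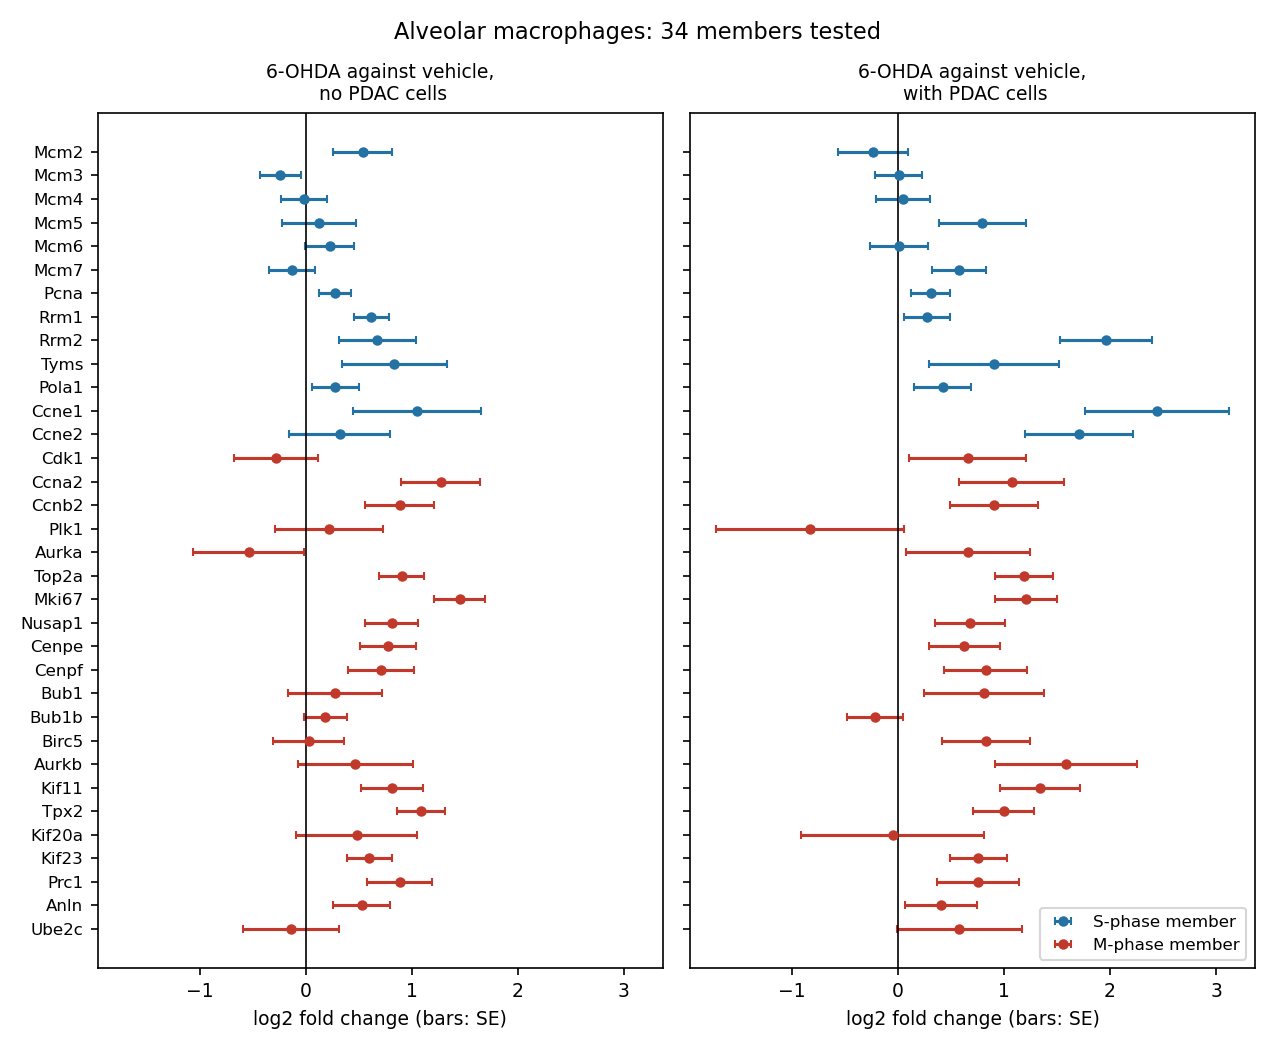
Log2 fold change, 6-OHDA against vehicle, of the 34 members tested in alveolar macrophages, without PDAC cells (3 against 3 samples, left) and with them (2 against 2, right). Bars are standard errors, and 28 and 30 of 34 points lie above 0 although none passed the adjusted threshold.

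A pair of other lists of cell-cycle genes, with no member among them, were counted beside the members. Of 40 other G1/S genes tested in alveolar macrophages, 34 had a fold change above 0 under 6-OHDA without PDAC cells and 35 with them (medians 0.32 and 0.53), and none was called. Of 47 other G2/M genes tested from a list of 50, 42 were above 0 in each (medians 0.56 and 0.86), and 1 was called. This was Kif15, a spindle motor that works beside Kif11, which rose with PDAC cells from 7.83 and 7.53 CPM to 28.6 and 20.2 CPM (log2 fold change 1.66 ± 0.27, adjusted p 0.0343). The call did not hold with the 4 compared samples fitted alone (adjusted p 0.534) or with the sample number as a block (0.06595). It was also lost without 6-OHDA-PDAC 1 (0.568), 6-OHDA-PDAC 2 (0.167) or vehicle-PDAC 2 (0.1805).

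The share of cells with several mitotic transcripts had the same order of means. At least 3 M-phase members were found in 1.46%, 1.37% and 1.68% of thinned alveolar macrophages of the vehicle samples and in 3.16%, 2.93% and 1.61% of those of the 6-OHDA samples. The means were 1.504% ± 0.162 (SD, n = 3) and 2.57% ± 0.834 (SD, n = 3), and the groups overlapped through 6-OHDA 3. With PDAC cells the shares were 1.01% and 0.899% against 2.42% and 3.002%, without overlap. Such cells held on average 5.57 to 6.69 M-phase transcripts each in the vehicle samples and 7.25 to 7.455 in the 6-OHDA samples, but 5.41 and 6.70 against 6.08 and 5.77 in the seeded lungs. For Mki67 or Top2a the shares were 4.86%, 4.15% and 4.85% against 7.11%, 9.02% and 4.985%. With PDAC cells they were 2.89% and 4.57% against 6.45% and 6.47%.

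BIBO3304 gave smaller differences in alveolar macrophages. Mki67 was at 96.9, 70.6 and 73.1 CPM in its 3 samples, above the vehicle samples (log2 fold change 0.64 ± 0.24, adjusted p 0.193), while Top2a was at 32.0, 30.4 and 24.9 CPM, within or below them. In the seeded lungs Mki67 was at 38.5 and 65.9 CPM and the summed M-phase members at 179 and 257 CPM, on both sides of the vehicle-PDAC samples. The share with at least 3 M-phase members was 1.95% ± 0.322 (SD, n = 3) under BIBO3304 and 1.38% ± 0.335 (SD, n = 2) under BIBO3304-PDAC.

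**Figure D4:**
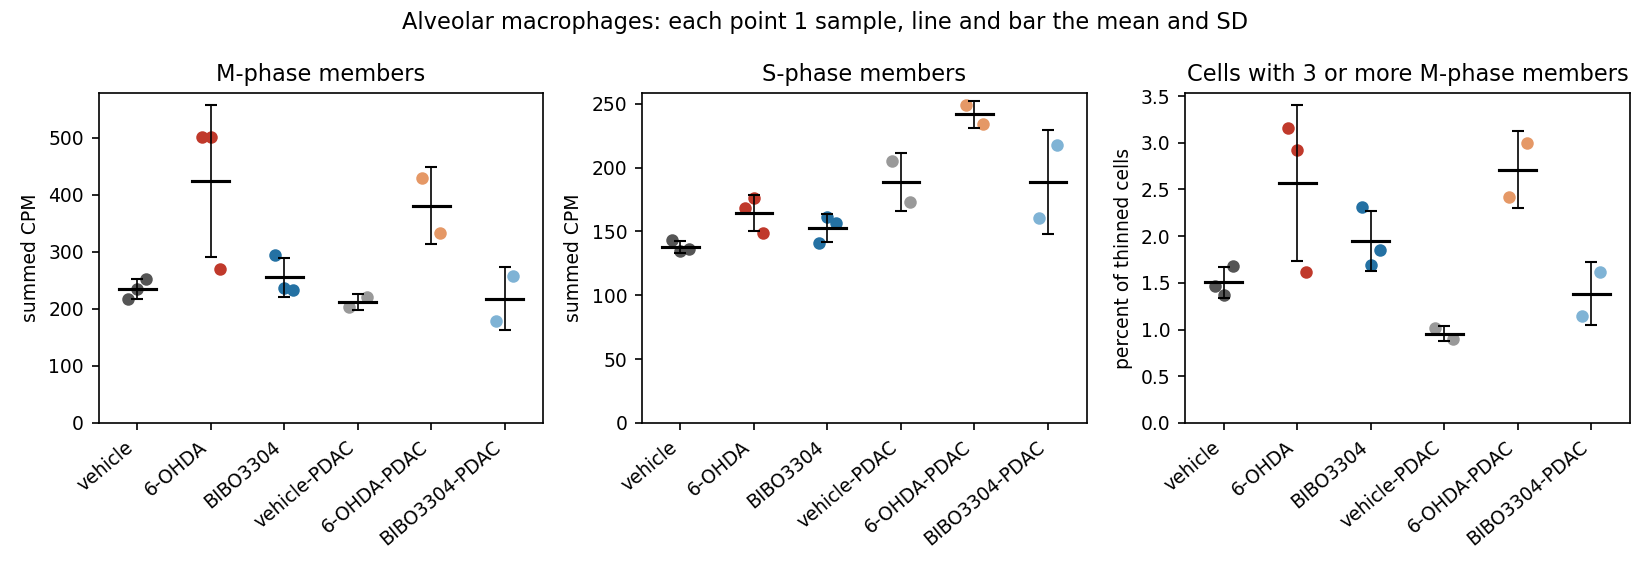
Summed CPM of the 23 M-phase members (left), of the 13 S-phase members (middle) and the percent of thinned cells with at least 3 M-phase members (right) in alveolar macrophages, by group. Each point is 1 sample, and lines and bars are the mean and SD (n = 3 without and n = 2 with PDAC cells). Within each setting, with or without PDAC cells, the 6-OHDA group has the highest mean in all 3 panels, and 6-OHDA 3, at 269 CPM and 1.61%, lies next to the vehicle samples.

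The number of cells and their depth differed between the same groups. The 6-OHDA lungs yielded 730 to 970 alveolar macrophages and the vehicle lungs 2675 to 2843. With PDAC cells these numbers were 477 and 565 against 2096 and 4075. The median depth per alveolar macrophage was 2892 to 3612 against 2035 to 2582 transcripts without PDAC cells, and 3198 and 4500 against 2945 and 5052 with them. Their part in the differences was not tested. Onecut2, a marker of the seeded cells here, was at 0 to 0.283 CPM in alveolar macrophages of every vehicle and 6-OHDA sample, with and without PDAC cells.

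In interstitial macrophages Top2a was nearly absent under BIBO3304 alone. The counts were 1, 1 and 0 transcripts in the BIBO3304 samples (2.56, 2.56 and 0 CPM) and 10 and 23 in the BIBO3304-PDAC samples (16.1 and 21.1 CPM). The fitted log2 fold change was 3.40 ± 0.84 (adjusted p 0.00855, edgeR), which depends on the prior count at such numbers. Summed over samples, 33 against 2 transcripts gave a ratio of 12.6 relative to the cells' totals, with a 95% exact interval of 3.225 to 108.5 for counting error only. Pcna rose with it, from 2, 3 and 7 transcripts (5.13, 7.69 and 15.95 CPM) to 13 and 34 (20.9 and 31.3 CPM), a log2 fold change of 1.44 ± 0.45 (adjusted p 0.0297). The groups did not overlap for either gene. In this cell type and comparison 18% of all 6443 genes tested were called. Over all 15 samples, 2 of 42 thinned Top2a transcripts of interstitial macrophages lay in cells with Mki67 (4.76%, 0.582% to 16.2%). Cells with Mki67 were 3.44% of the type.

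Among the vehicle and BIBO3304 groups, with and without PDAC cells, the BIBO3304 samples without PDAC cells had the lowest levels of both genes. Top2a was at 6.80, 20.6 and 12.9 CPM in interstitial macrophages under vehicle and Pcna at 24.9, 29.4 and 25.7 CPM. Against these the BIBO3304 samples were lower by log2 fold changes of -2.86 ± 0.91 for Top2a (adjusted p 0.162) and -1.43 ± 0.46 for Pcna (adjusted p 0.164), neither called. In the vehicle-PDAC samples Top2a was at 10.5 and 12.8 CPM and Pcna at 25.7 and 19.95 CPM, close to their levels without PDAC cells. The interaction did not pass for Top2a (log2 difference 3.57 ± 1.09, adjusted p 0.116) or Pcna (1.645 ± 0.60, adjusted p 0.193).

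Of the 6 members tested in interstitial macrophages the other 4 were not called. Their log2 fold changes were 0.16 ± 0.63 for Mcm3 (adjusted p 0.890), 0.10 ± 0.52 for Mcm4 (0.926), -0.44 ± 0.32 for Pola1 (0.358) and -0.28 ± 0.38 for Mki67 (0.651). Mki67 was at 71.8, 30.8 and 29.6 CPM under BIBO3304 and at 32.2 and 38.6 CPM under BIBO3304-PDAC, with overlapping groups. Mcm5 and Rrm2 were below the filter and were not tested. Mcm5 was at 17.9, 5.13 and 4.56 against 3.22 and 9.20 CPM, and Rrm2 had 0, 0 and 1 against 0 and 0 transcripts. Ckap2l, a spindle-associated gene of the other G2/M list, fell, from 56.4, 15.4 and 20.5 to 8.04 and 9.20 CPM (log2 fold change -1.78 ± 0.59, adjusted p 0.0413). That call was lost without BIBO3304 1 (0.296) or either BIBO3304-PDAC sample (0.143 and 0.217), and with the replicate block (0.08855). The summed alveolar macrophage markers in these cells were at 51.9 to 152 CPM under BIBO3304 and at 235 to 509 CPM under BIBO3304-PDAC. Their part in the Top2a and Pcna differences was not tested, and Onecut2 was at 0 in all 5 samples. Without BIBO3304-PDAC 2 neither gene was called (adjusted p 0.109 and 0.324). Pcna was also not called without BIBO3304 1 (0.112) or BIBO3304 2 (0.0974), nor by DESeq2 (0.0732).

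Dendritic cells held more Mki67 relative to Top2a than alveolar macrophages, T cells and cancer cells did. Over all 15 samples dendritic cells held 1359 Mki67 and 299 Top2a transcripts, a ratio of 4.545 (4.01 to 5.17). The ratio of the same genes was 1.88 (1.80 to 1.96) in alveolar macrophages, 1.44 (1.37 to 1.53) in cancer cells and 1.69 (1.45 to 1.97) in T cells, and 3.53 (2.87 to 4.37) in interstitial macrophages. Over the 14 samples with at least 5 Top2a transcripts the ratio in dendritic cells ranged from 1.28 to 9.71. After thinning, 20.7% of 241 dendritic cells with Mki67 held an M-phase member other than Mki67 and Top2a, against 7.51% of those without Mki67. The corresponding shares were 45.5% against 8.13% in alveolar macrophages, 43.3% against 6.22% in T cells and 80.0% against 47.3% in cancer cells. In interstitial macrophages they were 9% of 100 cells against 4.81%. These comparisons were chosen after the values had been seen.

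The dendritic cells were split by transcripts of 6 subtype markers. Siglech, a marker of plasmacytoid dendritic cells, divided them most clearly: Mki67 was found in 3.46% of 462 cells with a Siglech transcript (1.99% to 5.56%) and in 17.9% of 1257 cells without one (15.8% to 20.1%). Top2a was found in 0.649% and 5.25% of the same cells. Among 250 cells with Ccr7, which marks migratory mature dendritic cells, 47 held Mki67 (18.8%, 14.1% to 24.2%) and 2 held Top2a (0.800%, 0.0970% to 2.86%). Cells with Xcr1, a marker of the cross-presenting type, held Mki67 in 22.0% of 236 and Top2a in 5.51%. Median depths were 2700, 2878 and 4531 transcripts in cells with Siglech, Ccr7 and Xcr1. Counted by at least 3 M-phase members, 40 of 1719 dendritic cells remained.

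Mki67 fell in dendritic cells under BIBO3304 when PDAC cells were present. It was at 280, 340 and 257 CPM in the BIBO3304 samples and at 144.5 and 109 CPM in the BIBO3304-PDAC samples, without overlap. The log2 fold change was -1.19 ± 0.28 (adjusted p 0.0402, edgeR), in a cell type where 1.34% of the 5730 genes tested were called in this comparison. Top2a was at 36.25, 49.2 and 30.4 against 39.6 and 24.5 CPM, Pcna at 19.8, 19.3 and 13.8 against 7.92 and 19.1 CPM, and both groups overlapped. Mcm5 had 1, 2 and 2 against 6 and 1 transcripts, and Rrm2 0, 1 and 2 against 0 and 1. Under vehicle, Mki67 was at 225, 230 and 236 CPM without and 270 and 221.5 CPM with PDAC cells. The interaction was -1.28 ± 0.38 on the log2 scale and did not pass (adjusted p 0.229).

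Siglech moved the other way in the same samples. Cells with a Siglech transcript made up 25.4%, 21.6% and 23.6% of dendritic cells in the BIBO3304 samples and 34.6% and 37.4% in the BIBO3304-PDAC samples. In cells without a Siglech transcript, Mki67 was at 314, 437 and 270 CPM against 206 and 159 CPM of those cells' own totals, still without overlap. The log2 fold change was then -0.75 and did not pass (adjusted p 0.302). The thinned share of these cells with Mki67 was 21.4%, 34.1% and 17.5% against 19.6% and 17.2%, which overlap. The summed markers of alveolar macrophages in these dendritic cells were at 88.35 to 123 CPM under BIBO3304 and 287 to 329 CPM under BIBO3304-PDAC, and those of monocytes at 151 to 213.5 and 250 to 348.5 CPM; their part in the Mki67 difference was not tested. Leaving out any 1 of the 5 samples also ended the call, with adjusted p from 0.0622 to 0.610. The thinned share of all dendritic cells with Mki67 or Top2a was 22.0%, 28.3% and 18.5% against 14.01% and 13.89%, without overlap. It was 18.75% to 25.9% against 13.8% to 15.4% without the top doublet scores.

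Under 6-OHDA the M-phase members of dendritic cells were lower than under vehicle, the opposite order to alveolar macrophages; the difference between the types was not tested. Their sum was at 378.5, 846.5 and 463.4 CPM in the vehicle samples and at 263.2, 260.1 and 339.5 CPM in the 6-OHDA samples. In the lungs with PDAC cells it was at 389.9 and 474.6 against 309.2 and 176.2 CPM, so that the groups overlapped in neither setting. The S-phase sums overlapped in both, at 146.6 to 166.4 against 118.6 to 244.1 CPM without PDAC cells and at 135.8 to 161.4 against 91.03 to 231.9 CPM with them.

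All 5 M-phase members tested in dendritic cells (Mki67, Top2a, Cenpf, Cenpe and Kif23) had a log2 fold change below 0 in both settings, where 49% and 50.1% of all genes lay above 0. Of all 9 members tested, 8 lay below 0 without PDAC cells and 6 with them. None was called, beside 0.75% and 2.83% of all genes, and the smallest adjusted p was 0.273 without PDAC cells (Cenpe, the kinetochore motor, -1.97 ± 0.75) and 0.0909 with them (Cenpf, -3.61 ± 1.17). Mki67 was at 225, 230 and 236 against 138.8, 120 and 244.6 CPM without PDAC cells, where 1 sample overlapped (log2 fold change -0.49 ± 0.25, adjusted p 0.442). The PDAC groups were at 270 and 221.5 against 164.2 and 123.3 CPM, without overlap (-0.78 ± 0.31, adjusted p 0.171). Top2a was at 38.0, 179.5 and 59.0 against 34.7, 56.0 and 29.95 CPM (-1.11 ± 0.54, adjusted p 0.401). The thinned share with either gene was 21.2%, 16.55% and 19.75% against 8.64%, 11.7% and 16.3% without PDAC cells, and 19.0% and 13.4% against 14.75% and 9.76% with them.

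The makeup of the dendritic cells differed between the same samples. Cells with a Siglech transcript were 13.6%, 16.9% and 18.5% under vehicle and 27.7%, 34.1% and 44.8% under 6-OHDA. With PDAC cells they were 18.6% and 20.6% against 34.7% and 60.4%. In cells without a Siglech transcript, Mki67 was at 254, 223.5 and 272 CPM under vehicle and at 196, 125 and 343 CPM under 6-OHDA. With PDAC cells it was at 316 and 224 against 275 and 306 CPM of those cells' own totals. These groups overlapped in both settings. The thinned share of these cells with Mki67 was 22.5%, 14.7% and 18.3% against 10.3%, 8% and 20.7%, and 21.5% and 13.8% against 16.2% and 15.6%, which also overlap. The summed dendritic cell markers were at 687.7 to 990 against 1170 to 1336 CPM without PDAC cells and at 710.5 to 1265 against 1728 to 2146 CPM with them. Those of alveolar macrophages were at 204.5 to 462.6 against 102.8 to 136.4 CPM and at 145.2 to 479.3 against 135.7 to 146.2 CPM. Their part in the lower M-phase sums was not tested.

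**Figure D5:**
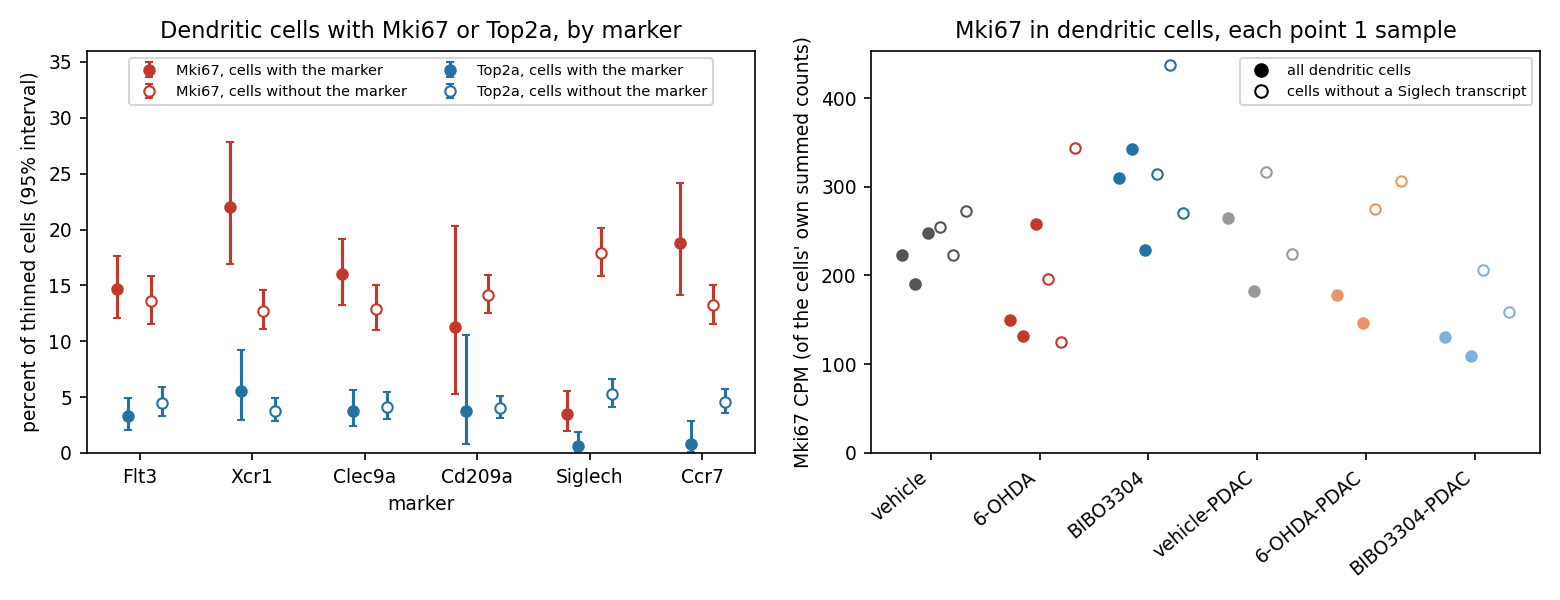
Percent of thinned dendritic cells with Mki67 (red) or Top2a (blue), split by 6 markers with 95% exact binomial intervals (left), and Mki67 per sample in all dendritic cells and in those without a Siglech transcript, in CPM of the cells' own totals (right). Mki67 is at 3.46% in cells with Siglech and 18.8% in cells with Ccr7, where Top2a is at 0.800%.

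Mki67 in T cells varied between samples of a group. It was at 53.7 to 85.75 CPM over the vehicle samples, 48.7 to 96.7 CPM under 6-OHDA and 10.1 to 161 CPM under BIBO3304. With PDAC cells it was at 23.9 and 127 CPM (vehicle-PDAC), 28.6 and 51.8 CPM (6-OHDA-PDAC) and 73.9 and 119 CPM (BIBO3304-PDAC). Top2a spanned 8.17 to 115 CPM. It was highest in vehicle-PDAC 2 (103.5 CPM) and BIBO3304-PDAC 2 (115 CPM), and at 59.1 CPM in BIBO3304 3, where Mki67 was highest. Mcm5 lay between 4.43 and 18.7 CPM and Pcna between 11.2 and 45.0 CPM, and Rrm2 had at most 6 transcripts in a sample. None of the 12 members tested in T cells was called in any comparison, and the smallest adjusted p was 0.162 (Kif23, the motor of the central spindle, BIBO3304 against vehicle without PDAC cells).

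The 312 cancer cells held 3020 Mki67 and 2092 Top2a transcripts. They were deep libraries, with a median of 19016 transcripts per cell, and were not fitted, as only 1 vehicle-PDAC sample held them. Mki67 was at 440 CPM in vehicle-PDAC 1, at 419 and 400 CPM under 6-OHDA and at 283 and 246 CPM under BIBO3304. Top2a was at 246, at 289 and 316, and at 198 and 205 CPM in the same order. The summed M-phase members were at 1935, at 1843 and 1801, and at 1319 and 1322 CPM, so that both BIBO3304-PDAC samples lay below the other 3. The S-phase members showed less of this, at 715, at 562 and 756, and at 522 and 564 CPM. Pcna was at 67.8, at 75.5 and 110, and at 62.7 and 65.7 CPM, Mcm5 at 64.2, at 47.7 and 54.5, and at 33.1 and 46.95 CPM, and Rrm2 at 33.1, at 20.9 and 25.03, and at 23.95 and 30.05 CPM. The share with at least 3 M-phase members did not follow, at 22.2%, at 24.0% and 25.7%, and at 12.1% and 23.6%. Without the top doublet scores, which held 21.9% to 42.9% of the cancer cells of a sample, the M-phase sums were 2259, 1969 and 1999, and 1619 and 1464 CPM, in an alternative added after the values had been seen. Some markers of the lung's own cells were highest in the BIBO3304-PDAC samples. Summed alveolar macrophage markers were at 319.8, at 327.3 and 493.3, and at 947.6 and 923.9 CPM. Those of type 2 epithelial cells were at 469.3, at 304.5 and 153.6, and at 896.3 and 569.9 CPM. Others did not follow this order, such as the fibroblast marker Col1a2 at 97.3, at 86.9 and 92.3, and at 86.7 and 122 CPM. The part of such markers in the lower M-phase sums was not tested. These differences have no test.

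In alveolar fibroblasts 1 call came from the other G1/S genes. E2f1, the factor that activates the S-phase members, rose there under BIBO3304 from 1.17, 1.10 and 2.52 CPM without to 4.20 and 10.85 CPM with PDAC cells (log2 fold change 1.95 ± 0.54, adjusted p 0.0305). The call was lost without BIBO3304 1 (0.0604), BIBO3304 2 (0.106) or BIBO3304-PDAC 2 (0.3075), and with the compared groups alone (0.0828). Of the 20 members tested in alveolar fibroblasts in this comparison, 15 had a fold change above 0 (50.8% of all genes) and 3 an unadjusted p under 0.05 (26.9% of all genes), and none was called (9.95% of all genes). The smallest adjusted p there was 0.0693, for Anln (log2 fold change 1.67 ± 0.57). Over all types, the other G1/S and G2/M lists gave 3 calls in 7 comparisons, E2f1, Ckap2l and Kif15.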

How the data were processed

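Single lung cells were barcoded by split-pool ligation (Evercode WT v3) with oligo(dT) and random hexamer primers, per the labels' protocols, so levels of different genes are not compared. The values deposited are whole, unnormalized counts of transcripts for each gene in each cell, and the deposited cell metadata give the sample, condition, cell type and mitochondrial percent. The submitters' processing notes name mm39 and Seurat 5.3.0; no source used here names the aligner or the use of strand. The 16 GEO entries are sublibraries that mix all samples, so groups were taken from the metadata. Every deposited cell had at least 301 genes and at most 9.99% mitochondrial transcripts, as the files show, and no further filter on cells was applied.

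For each sample and type the counts were added up (at least 20 cells in a sample, 2 samples in a group) and tested with edgeR 4.0.16 (filterByExpr, TMM, quasi-likelihood test, all 6 groups in 1 fit, R 4.3.3). P-values were adjusted by Benjamini-Hochberg over all genes of a type and comparison. The procedure was tested on simulated data. For 6-OHDA against vehicle in alveolar macrophages, it recovered 49% of 2-fold changes without PDAC cells and 34% with them. For PDAC cells against none under BIBO3304, it recovered 12% of 2-fold changes in interstitial macrophages and 20% in dendritic cells. Of 4-fold changes it recovered 70% to 86%, and 1.89% to 3.19% of calls were false. Cells were thinned to 1000 transcripts with numpy 2.4.6. Scrublet (scanpy 1.11.5) called 32 of 80449 cells as doublets, too few to be of use, so all cells were kept and the top 5% of scores (3803 cells) were left out in an alternative. Other alternatives were DESeq2 1.42.0 and its size factors, no filter, at least 50 cells, the compared groups alone, the replicate number as a block, each sample left out, and other thinning depths.

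The members and lists were chosen with earlier results of these data known. Values were given for members that passed, for Mki67, Top2a, Mcm5, Pcna and Rrm2 in the 5 types with the highest thinned share, and for up to 4 called genes of each other list. Tpx2, Bub1b, Anln and the 6 promoters were chosen after their values were seen.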

Additional observations from a re-analysis of the deposited data

How the results depend on the processing

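The 3 calls among members under BIBO3304 (PDAC cells against none) became 5 without the filter on low counts and 1 with the compared groups fitted alone. With a sample left out they ranged from 0 (without BIBO3304-PDAC 2) to 3. For 6-OHDA without PDAC cells, 0 calls became 1 with DESeq2's size factors, 4 without the filter, 3 with the compared groups alone, 2 with DESeq2 and 1 without the top doublet scores, and 0 to 3 with a sample left out (3 without 6-OHDA 3). For 6-OHDA with PDAC cells, 0 became 5 without the filter, 1 with the compared groups alone and 3 with DESeq2. For BIBO3304 against vehicle, 0 became 1 without the filter in lungs without PDAC cells, and 0 to 3 with a sample left out in seeded lungs (3 without BIBO3304-PDAC 1, 1 without vehicle-PDAC 2). DESeq2 gave 1 for the BIBO3304 interaction. The cause of these differences was not tested.

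Equal sample numbers did not go with higher correlations in the groups without PDAC cells. In their alveolar macrophages, deviations from the group means had correlations of -0.367 to 0.219 between equal numbers and -0.406 to 0.441 between unequal ones. With 3 samples in a group these values cannot exclude a pairing, and the seeded samples were not compared in this way. With the replicate block, calls among members for 6-OHDA with PDAC cells went from 0 to 1, and all genes called for BIBO3304 with PDAC cells from 36 to 94.

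Calls over all genes moved more. For 6-OHDA without PDAC cells 76 became 641 without the filter, 195 with the compared groups alone and 189 with DESeq2, and for BIBO3304 without PDAC cells 349 became 2831, 761 and 851. For PDAC cells under vehicle 2 became 327, 4 and 59, and 4 both with at least 50 cells and without the top doublet scores. Under 6-OHDA 784 became 1299 with the compared groups alone, and 6-OHDA with PDAC cells went from 435 to 1139 without the filter. BIBO3304 with PDAC cells went from 36 to 618, 14 and 311, and to 63 without the top doublet scores. The interactions went from 8 to 187, 4 and 62 (6-OHDA) and from 469 to 2558, 95 and 996 (BIBO3304). With a sample left out these counts ranged, in the order of the report's comparisons, over 4 to 87, 23 to 712, 1 to 122, 134 to 593, 343 to 5515, 292 to 674 and 118 to 1043, and over 1 to 73 and 37 to 4285 for the interactions.

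The difference in the share of cells with Mki67 or Top2a, 6-OHDA minus vehicle in alveolar macrophages, was 2.42 percentage points without PDAC cells (4.97 unthinned, 1.43 to 3.45 with a sample left out). With PDAC cells it was 2.73 points, 1.69 at 500 transcripts, 3.82 at 2000, 4.32 unthinned and 1.75 for at least 3 M-phase members (1.885 to 3.57 with a sample left out). For PDAC cells against none under BIBO3304 it was -9.01 points in dendritic cells, -14.4 unthinned, -15.7 for at least 2 transcripts and -0.409 for at least 3 M-phase members (-11.2 to -6.325 with a sample left out). In interstitial macrophages it was 1.03 points and changed sign, to -2.41 at 2000 transcripts, -0.420 unthinned, -2.48 for at least 2 transcripts, -0.3745 for at least 3 M-phase members, -0.0619 without BIBO3304 2 and -0.851 without BIBO3304-PDAC 2 (up to 2.93 with another sample left out). The difference in summed S-phase CPM with PDAC cells was 52.8, and 76.0 on raw totals (36.8 to 68.7 with a sample left out), and 20.3 to 34.1 without PDAC cells. The M-phase difference ranged over 150 to 266.5 CPM without and 121 to 217 CPM with PDAC cells. Thinning to 1000 transcripts leaves shares under about the background of neutrophils and ciliated cells unresolved.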
